A study of Mus musculus with 30 samples.

Results

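The 37 genes described here encode proteins of the nucleolus that make ribosomes, and they were chosen by name from the 49585 rows of a table of transcript levels in 8-cell mouse embryos. Each of the 37 symbols stood on a single row, and all 37 had a mean of at least 1 FPKM, so all of them passed the filter and were among the 12120 genes tested. FPKM are fragment counts scaled to the length of the gene and to the depth of the library. The RNA came from embryos after a knockdown of Yy1 that the labels number 1, and from embryos after a control knockdown, with 2 libraries in each group. Yy1 encodes the zinc finger transcription factor YY1, and the comparison asks which transcripts differ at this stage when it is depleted. Embryos of both groups were of the strain given as BDF1 x BDF1, at the 8-cell stage, and were grown in KSOM, an embryo culture medium. The labels do not give the number of embryos per library or say whether the libraries of a group came from separate collections, so p-values cover only how these 4 libraries vary, and part of that may be technical. The other 26 of the 30 samples, MNase-seq and CUT&RUN of embryos and embryonic stem cells, were not analysed here.

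Ribosomes are built in the nucleolus. RNA polymerase I transcribes a long precursor RNA, small nucleolar ribonucleoproteins (snoRNPs) guide its methylation and pseudouridylation, and large assemblies of processing factors cut it and fold it into the small and the large ribosomal subunit. In the cleaving mouse embryo compact nucleolus precursor bodies turn into active nucleoli as transcription of ribosomal RNA gets under way.

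The libraries held between 29302489 and 34429515 fragments, recovered from the steps between FPKM values, and 23329 to 24755 genes above 0. Yy1 itself had 5.89 and 7.98 FPKM in the Yy1 knockdown libraries and 77.7 and 71.2 FPKM in the controls, a 10.7-fold lower level (log2 fold change -3.26, standard error 0.19, limma adjusted p = 0.0556). With voom, limma's method for counts, run on the recovered fragments, it was -3.45 (adjusted p = 4.87e-05). All 12 markers of the cleavage-stage embryo, among them Pou5f1, Tfap2c and Cdx2, exceeded 1 FPKM on average. Markers of blood cells summed to 0.758 to 2.54 FPKM, with Hbb-bs and Hbb-bt at 0, and those of sperm to 2.77 to 6.53 FPKM, with Prm1, Tnp1 and Tnp2 at 0. Among the sperm markers Odf2 alone exceeded 1 FPKM on average. Cumulus and granulosa cell markers summed to 8.1 and 7.94 FPKM in the Yy1 knockdown libraries and to 5.63 and 5.58 FPKM in the controls. Of those 14 markers Amhr2 alone exceeded 1 FPKM, and Fshr, Lhcgr and Has2 were at 0; the part of this list in the results below was not tested.

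Transcripts of the nucleolar machinery were abundant in these embryos and slightly higher, on balance, after Yy1 knockdown. By the mean of log2(FPKM + 1), 29 of the 37 were higher and 8 lower in Yy1 knockdown embryos, where 53.2% of all genes tested were higher. Their median log2 fold change was 0.18, against 0.02 over all genes tested. No member passed the test: limma called 0 of the 37, as it called 0% of all genes tested, and voom also called 0 members. An unadjusted p under 0.05 was found for 5 members, against 8.9% of all genes tested. Utp20, Wdr43, Ddx21 and Wdr75 were higher, where 4.22% of all genes tested were, and Rrp1b was lower, where 4.69% were. With median-ratio scaling of the libraries 2 members had such a p, as did 1101 of all 12120 genes tested. A fit with a term for replicate number gave 7 members and 1187 genes, and voom gave 7 members and 1264 genes. Among protein-coding genes alone 6 members and 1038 of 8565 genes had such a p. Differences reached at most 1.52-fold in either direction, and every member's 95% interval lay within a log2 change of 1. These intervals had a median half-width of 0.38 on the log2 scale and excluded 0 in 5 members.

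In 19 of the 37 members both Yy1 knockdown libraries lay on the same side of both controls, 16 above and 3 below. Among all genes tested 40.7% were separated in this way, 21.8% above and 18.9% below. Highly expressed genes leaned the same way in these libraries, though less far. Among the 1458 genes that averaged 50 FPKM or more, 61.7% were higher in Yy1 knockdown and the median log2 fold change was 0.06. Of the 23 members above that level 18 were higher. In bulk RNA, fewer cells of a type and less RNA per cell cannot be told apart.

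**Figure D1:**
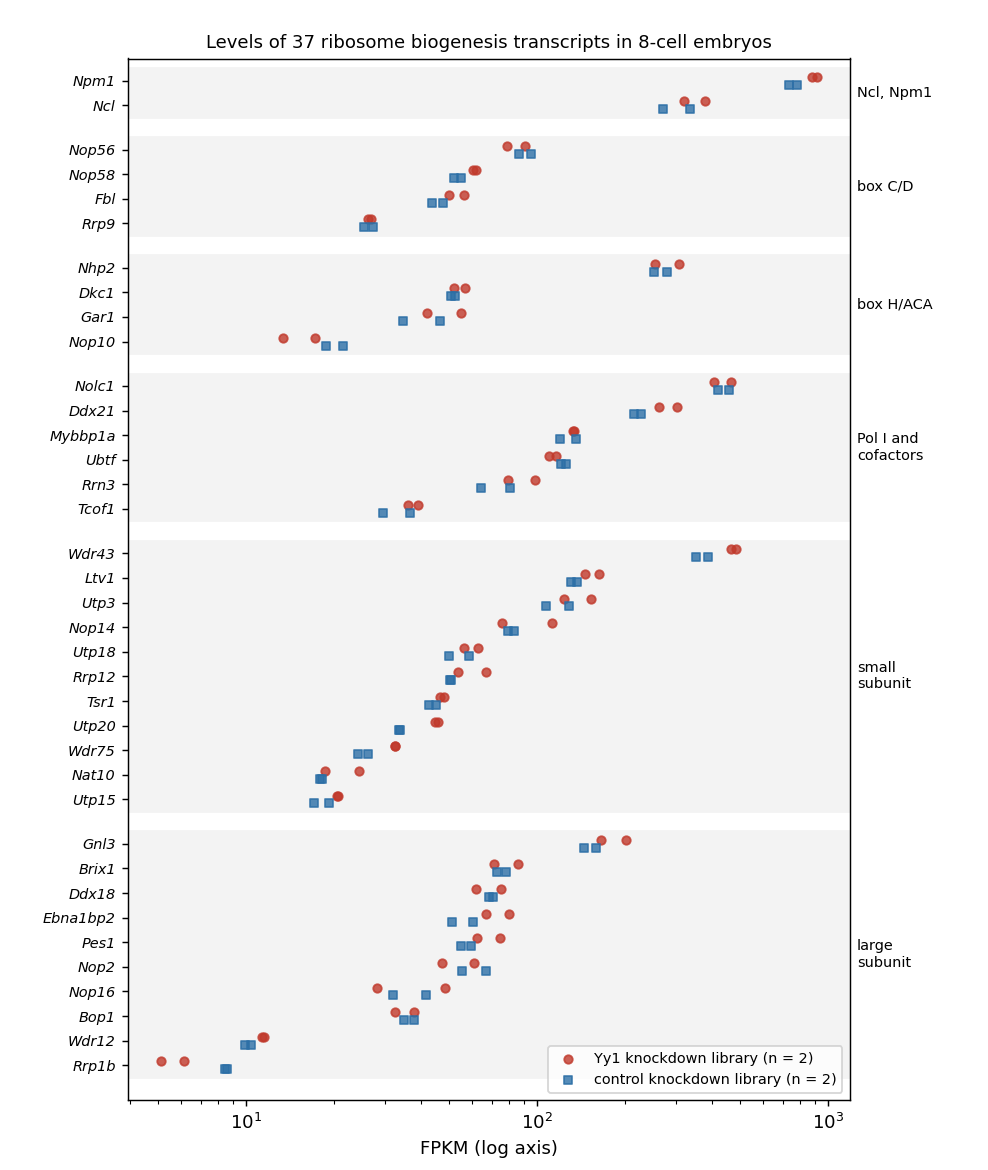
Level of each of the 37 transcripts in FPKM on a log axis, with 2 Yy1 knockdown libraries (circles) and 2 control libraries (squares) per gene, grouped by role and ordered by mean level within a role. Npm1, with 879 and 917 FPKM after Yy1 knockdown and 738 and 783 FPKM in the controls, was the highest member and Rrp1b the lowest.

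The members spanned a wide range of levels. Their median over the 4 libraries was 57.5 FPKM, against 6.06 FPKM over all genes tested, and 18 of them stood above the 90th percentile. The lowest, Rrp1b, was at the 53.8th percentile. The highest were Npm1, Nolc1, Wdr43, Ncl and Nhp2, and the lowest Rrp1b, Wdr12 and Nop10. Npm1 stood clear of the others, while Nolc1, Wdr43, Ncl and Nhp2 each overlapped the next in this order over the 4 libraries. At the low end Rrp1b, Wdr12 and Nop10 did not overlap. Between 508 and 112993 fragments supported a member in a library. With each fragment taken as an independent molecule, counting error was at most 4.44% of a value. PCR copies are not independent, so the true error may be larger. The median coefficient of variation was 9.93% between Yy1 knockdown libraries and 5.69% between controls. It exceeded the counting error computed in this way in 33 of the 37 members in each group. Levels are per base of the gene length the authors used, and that length, recovered with the fragments, came to 10188 bases for Ncl, 69.1% of the span of the gene in RefSeq, and to 11955 bases for Wdr12. Where such a length holds intron bases, the FPKM understates the level of the mature transcript.

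Nucleophosmin and nucleolin are the most abundant proteins of the nucleolus. Npm1 encodes nucleophosmin, a chaperone of the granular outer region where subunits mature, and had 879 and 917 FPKM in the Yy1 knockdown libraries, against 738 and 783 FPKM in the controls. Both knockdown libraries were above both controls, with a mean of 898 ± 26.3 FPKM in Yy1 knockdown and 760.4 ± 31.9 FPKM in control embryos (SD, n = 2 each). The fitted log2 difference of 0.24 (standard error 0.13) did not pass, with a limma adjusted p of 0.632. Npm1 has processed pseudogenes of nearly the same sequence, and how reads shared with them were counted is not known. Ncl, the gene of nucleolin, an RNA-binding protein of early precursor processing, had 319 and 378 FPKM in the Yy1 knockdown libraries, against 271 and 336 FPKM in the controls. Here the groups overlapped, and replicate 2 was the higher library in each group; the log2 difference was 0.20 (standard error 0.17).

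Box C/D snoRNPs methylate ribosomal RNA and, as the U3 particle, help to cut it. Fbl encodes fibrillarin, their methyltransferase, and had 49.7 and 56.4 FPKM in the Yy1 knockdown libraries, against 43.7 and 47.5 FPKM in the controls. Nop58, a core scaffold protein of the particle, had 61.8 and 60.3 FPKM in the Yy1 knockdown libraries, against 54.7 and 51.8 FPKM in the controls. In both genes every knockdown library was above both controls, and the fitted log2 differences were 0.21 and 0.20 (limma adjusted p = 0.689 and 0.684). Nop56, the partner of Nop58 in the same scaffold, was lower by its mean, with 79.1 and 91.0 FPKM in the Yy1 knockdown libraries, against 86.7 and 95.3 FPKM in the controls, and its groups overlapped. Rrp9, a protein of the U3 snoRNP, averaged 26.5 ± 0.421 FPKM in Yy1 knockdown and 26.3 ± 1.29 FPKM in control embryos (SD, n = 2 each), and its log2 difference was 0.01 with a 95% interval from -0.34 to 0.36.

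Box H/ACA snoRNPs turn uridines of ribosomal RNA into pseudouridines, and their 4 core proteins had very different transcript levels. Nhp2 had 254 and 307 FPKM in the Yy1 knockdown libraries, against 253 and 280.4 FPKM in the controls. Its span ends at 51623718 and that of Rmnd5b starts at 51623673, so unstranded counting would share reads at this edge only. Dkc1, the gene of the pseudouridine synthase dyskerin, averaged 54.3 ± 3.41 FPKM in Yy1 knockdown and 51.5 ± 1.02 FPKM in control embryos (SD, n = 2 each). Gar1 had 42.0 and 55.0 FPKM in the Yy1 knockdown libraries, against 34.7 and 46.6 FPKM in the controls, and in each group replicate 2 was higher by about the same amount, 0.38 and 0.42 on the log2 scale. Nop10, the smallest core protein, had 13.4 and 17.3 FPKM in the Yy1 knockdown libraries, against 21.5 and 18.9 FPKM in the controls. It was 1 of the 3 members in which both knockdown libraries lay below both controls, 1.31-fold lower by the mean with a log2 fold change of -0.38 (standard error 0.19, limma adjusted p = 0.616). Its 508 to 820 fragments per library were the fewest of any member. The other 3 proteins of the particle were higher by their means, by 0.07 to 0.25 on the log2 scale, with overlapping groups. However, Nhp2 was at -0.0268 with quantile normalization, -0.00556 without control replicate 1 and -0.0686 without Yy1 knockdown replicate 2. In the other settings its difference was positive.

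Transcription by RNA polymerase I was represented by 6 members, 4 higher and 2 lower by their means. Ddx21, an RNA helicase that acts in ribosomal RNA transcription and processing, had 262 and 302 FPKM in the Yy1 knockdown libraries, against 215 and 227 FPKM in the controls. Both knockdown libraries were above both controls, 1.28-fold higher by the mean, with a log2 fold change of 0.35 (standard error 0.14, limma adjusted p = 0.556). Rrn3, the initiation factor that makes the polymerase competent for its promoter, had 98.5 and 79.5 FPKM in the Yy1 knockdown libraries, against 81.1 and 64.2 FPKM in the controls. For Rrn3 replicate 1 was the higher library in each group and the groups overlapped (log2 fold change 0.29, standard error 0.18). Ubtf, the gene of the factor UBF that keeps ribosomal DNA open, had 109.8 and 116 FPKM in the Yy1 knockdown libraries, against 121 and 126 FPKM in the controls, with both knockdown libraries below both controls. That difference was small, -0.13 on the log2 scale with an adjusted p of 0.785 in limma. Nolc1, a snoRNP chaperone and the second most abundant member, had 407 and 463 FPKM in the Yy1 knockdown libraries, against 456 and 417 FPKM in the controls, and its means differed by less than the spread between replicates. Tcof1, the gene of treacle, which recruits polymerase I and snoRNPs, averaged 37.5 against 33.1 FPKM (knockdown against control), and Mybbp1a, a nucleolar regulator of that polymerase, 134 against 128 FPKM.

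All 11 small subunit factors were higher by their means after Yy1 knockdown, with log2 fold changes from 0.11 to 0.41 and a median of 0.22. In 8 of the 11 the groups did not overlap, all 8 with knockdown above control, where 21.8% of all genes tested were separated upwards. None of the 11 passed, and the adjusted p values of limma lay between 0.532 and 0.835. In Yy1 knockdown replicate 2 all 11 were above both controls, and in replicate 1 8 of them were. Without Yy1 knockdown replicate 1 the median of the 11 was 0.38, and without replicate 2 it was 0.09 with 10 of 11 higher.

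Utp20, a very large protein of the small subunit processome, had the smallest unadjusted p of the 37 members. It had 45.6 and 44.8 FPKM in the Yy1 knockdown libraries, against 33.6 and 33.9 FPKM in the controls, values that hardly differed within a group and were 1.34-fold higher after Yy1 knockdown. This was a log2 difference of 0.41 (standard error 0.13, limma adjusted p = 0.532). The gene lies on chromosome 10, from 88746607 to 88826814 of the mm10 assembly. Wdr43, Wdr75 and Utp15 belong to a subcomplex that binds the nascent precursor and also aids its transcription. Wdr43, on chromosome 17, from 71616178 to 71659031, had 463 and 484 FPKM in the Yy1 knockdown libraries, against 386 and 353 FPKM in the controls. Wdr75 had 32.6 and 32.4 FPKM in the Yy1 knockdown libraries, against 26.2 and 24.3 FPKM in the controls. Both genes were separated between groups, 1.28-fold and 1.29-fold higher, with log2 fold changes of 0.36 and 0.35 (standard errors 0.13 and 0.14, limma adjusted p = 0.535 and 0.556). Utp15 was separated too, at 20.6 ± 0.0851 FPKM in Yy1 knockdown and 18.2 ± 1.46 FPKM in control embryos (SD, n = 2 each). All 3 partners were higher after knockdown, although Wdr43 was far more abundant than the others.

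The promoters of the members were searched for letters that transcription factors are known to bind, in windows of 250 bases before to 50 after a transcript start from RefSeq (build GRCm38.p6). Windows were at hand for 32 of the 37 members, 40 windows in all. The core motif of YY1, AANATGGC on either strand, stood in 1 of the 40 windows, that of Utp20, against 6.37% of the 21263 windows of protein-coding genes. The E-box CACGTG, a palindrome that binds factors such as MYC with MAX, stood in 9 of the 40 windows (22.5%), against 7.84% of those windows. The search covers these letters only, and the 2 motifs share no bases in these windows. The windows of Utp20 and Wdr43 are shown because these members had the smallest unadjusted p among those that were higher. Capitals mark the motifs. The windows of Ddx21, Wdr75 and Rrp1b, the other members with an unadjusted limma p under 0.05, held neither motif. In Utp20 the YY1 core begins 8 bases and the E-box 37 bases after the transcript's first base, and in Wdr43 the E-box begins 17 bases after it.
Utp20, chr10:88826765-88827064, strand -: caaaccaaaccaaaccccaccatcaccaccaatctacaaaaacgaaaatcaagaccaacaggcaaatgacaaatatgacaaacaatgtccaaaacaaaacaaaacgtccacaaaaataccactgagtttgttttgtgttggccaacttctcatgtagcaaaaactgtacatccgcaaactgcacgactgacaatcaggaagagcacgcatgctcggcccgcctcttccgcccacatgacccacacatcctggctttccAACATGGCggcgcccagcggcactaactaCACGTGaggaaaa
Wdr43, chr17:71615965-71616264, strand +: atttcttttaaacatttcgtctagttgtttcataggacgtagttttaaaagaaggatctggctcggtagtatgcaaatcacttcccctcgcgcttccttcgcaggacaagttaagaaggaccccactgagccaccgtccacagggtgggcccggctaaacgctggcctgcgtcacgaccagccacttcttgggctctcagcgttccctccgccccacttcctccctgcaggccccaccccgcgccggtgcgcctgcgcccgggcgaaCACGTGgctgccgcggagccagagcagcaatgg

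All 10 E-boxes of the 9 members are set side by side below with up to 12 bases on either side, 5′ to 3′ on the gene's strand and the E-box in capitals, to show the letters around a string that these promoters share. Rrn3 held 2 of them. They began between 215 bases before and 40 bases after the transcript's first base.
Ltv1, chr10:13193092-13193121, strand -: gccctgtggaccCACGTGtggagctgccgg
Mybbp1a, chr11:72441355-72441376, strand +: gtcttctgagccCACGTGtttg
Nop2, chr6:125131811-125131840, strand +: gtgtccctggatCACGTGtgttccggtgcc
Pes1, chr11:3963965-3963994, strand +: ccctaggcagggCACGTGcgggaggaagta
Rrn3, chr16:13780472-13780501, strand +: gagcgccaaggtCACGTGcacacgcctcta
Rrn3, chr16:13780639-13780668, strand +: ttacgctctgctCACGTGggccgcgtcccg
Tsr1, chr11:74898092-74898121, strand +: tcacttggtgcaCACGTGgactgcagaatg
Utp18, chr11:93885769-93885798, strand -: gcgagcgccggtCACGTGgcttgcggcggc
Utp20, chr10:88826765-88826789, strand -: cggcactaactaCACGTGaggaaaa
Wdr43, chr17:71616220-71616249, strand +: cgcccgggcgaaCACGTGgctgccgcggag

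Of these 9 members 8 were higher by their means after Yy1 knockdown, the exception being Nop2, where 53.2% of all genes tested were higher. The groups were separated upwards in 5 of these 9 and in 8 of the 23 members with a window and no E-box, where 21.8% of all genes tested were. The median log2 fold change was 0.20 for the 9 with an E-box, against 0.16 for those 23 members, of which 17 were higher. Whether these sets differ was not tested. Of the 9, Ltv1, Tsr1, Utp18, Utp20 and Wdr43 are small subunit factors, a role in which all 11 members were higher, so the sets also differ in role. Factors of the MYC family bind the E-box. Myc, chosen after its values were seen, averaged 10.8 ± 4.10 FPKM in Yy1 knockdown and 9.61 ± 2.02 FPKM in control embryos (SD, n = 2 each), with overlapping groups. Max, its partner, had 16.3 and 16.8 FPKM in the Yy1 knockdown libraries, against 14.5 and 12.3 FPKM in the controls (log2 fold change 0.29, limma adjusted p = 0.647). Mycn averaged 1.79 against 1.10 FPKM and Mnt, a repressor of the family, 5.15 against 5.75 FPKM (knockdown against control).

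The remaining small subunit factors had smaller or less even differences. Nop14, a core processome protein, had 76.0 and 112 FPKM in the Yy1 knockdown libraries, against 83.3 and 79.5 FPKM in the controls. Its knockdown libraries lay on either side of the controls, the largest gap between replicates in this group of genes, and without Yy1 knockdown replicate 2 its log2 difference was -0.0958. Rrp12, an export factor, averaged 60.1 against 50.5 FPKM, Nat10, an RNA acetyltransferase, 21.6 against 18.1 FPKM, and Ltv1, which acts late in the cytoplasm, 155 against 134 FPKM (knockdown against control), each separated between groups. Nat10 overlaps Caprin1 by a few bases only: its span ends at 103762954 and that of Caprin1 starts at 103762945. The level of Caprin1 was 48.1 and 42.0 FPKM after Yy1 knockdown and 62.3 and 60.8 FPKM in the controls. Tsr1, another late factor, averaged 47.2 against 43.7 FPKM and was separated as well. Utp18 and Utp3, both processome proteins, averaged 59.3 against 54.1 FPKM and 138 against 118 FPKM, with overlapping groups.

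**Figure D2:**
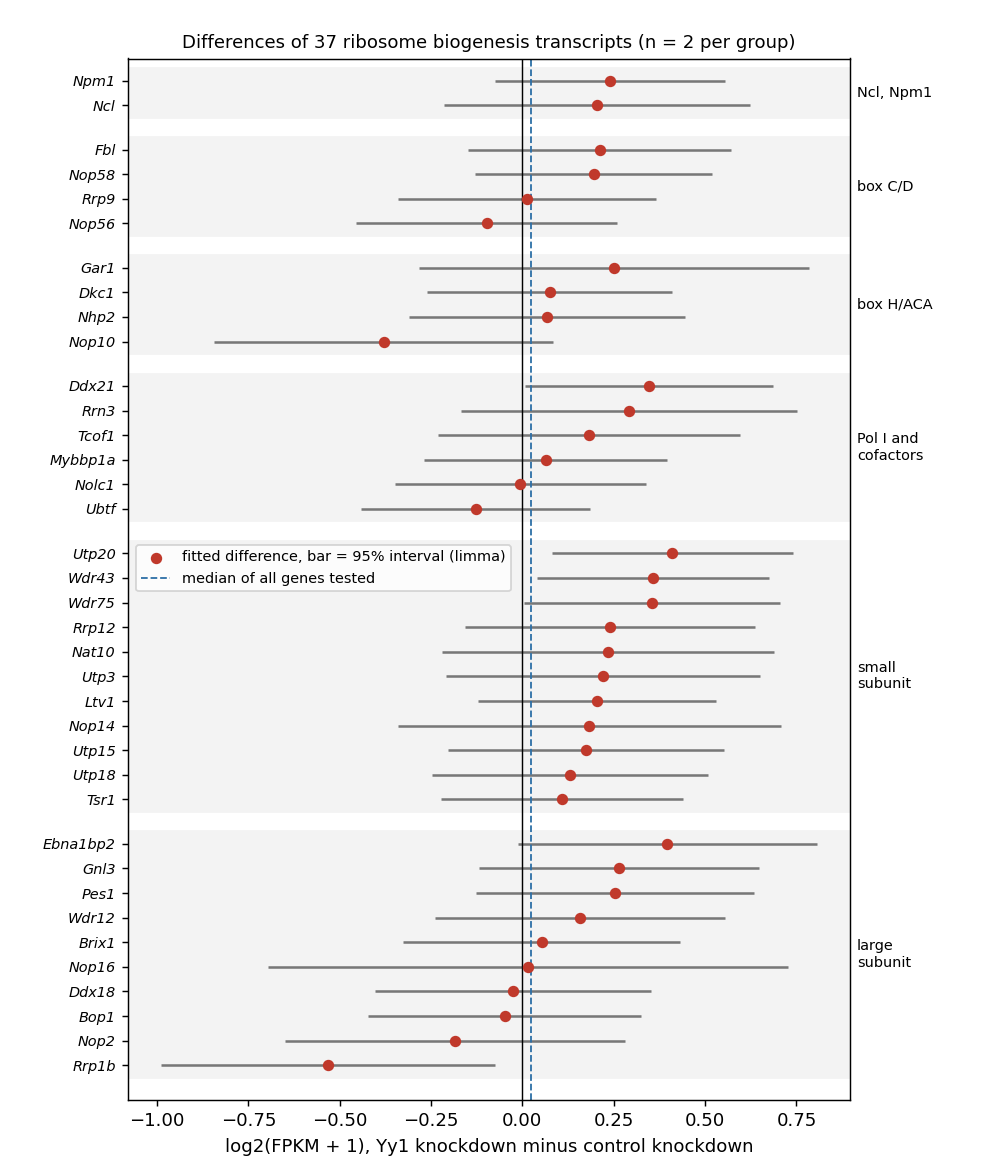
Fitted difference of each member, Yy1 knockdown minus control, on the log2(FPKM + 1) scale, with 95% intervals from limma (bars) and the median of all genes tested (dashed line). The 11 small subunit factors all lie to the right of 0, while the large subunit factors spread to both sides, from -0.53 for Rrp1b to 0.40 for Ebna1bp2.

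Large subunit factors were divided, with 6 of 10 higher and 4 lower and a median log2 fold change of 0.03. That median was 0.17 without Yy1 knockdown replicate 1 and -0.02, with 5 of 10 higher, without replicate 2. Without control replicate 1 it was 0.0041, without control replicate 2 it was 0.11, and with median-ratio scaling or quantile normalization it was 0.015 or 0.017. Rrp1b, a nucleolar protein of large subunit assembly that also binds chromatin, had 5.11 and 6.11 FPKM in the Yy1 knockdown libraries, against 8.48 and 8.57 FPKM in the controls. Both knockdown libraries were below both controls, 1.52-fold lower by the mean, the largest difference of any of the 37. On the log2 scale that was -0.53 (standard error 0.18, limma adjusted p = 0.532). Ebna1bp2, an early assembly factor, lay at the other end with 66.9 and 80.4 FPKM in the Yy1 knockdown libraries, against 51.2 and 60.1 FPKM in the controls, 1.32-fold higher and separated between groups (log2 fold change 0.40, standard error 0.16, limma adjusted p = 0.567).

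Pes1, Bop1 and Wdr12 encode the PeBoW complex, which is needed to process the precursor of the large subunit RNAs. Pes1 averaged 68.5 ± 8.80 FPKM in Yy1 knockdown and 57.1 ± 3.24 FPKM in control embryos (SD, n = 2 each) and was separated between groups. Wdr12 had 11.6 and 11.4 FPKM in the Yy1 knockdown libraries, against 10.4 and 9.91 FPKM in the controls, also separated. Bop1, the third partner, averaged 35.1 ± 3.55 FPKM in Yy1 knockdown and 36.3 ± 1.94 FPKM in control embryos (SD, n = 2 each) with overlapping groups, a log2 difference of -0.05. Gnl3, the gene of nucleostemin, a GTPase of stem cell nucleoli, averaged 184 ± 25.6 FPKM in Yy1 knockdown and 152 ± 10.5 FPKM in control embryos (SD, n = 2 each) and was separated upwards. Nop16, a large subunit assembly factor, had 28.2 and 48.3 FPKM in the Yy1 knockdown libraries, against 32.1 and 41.6 FPKM in the controls, the widest gap between replicates of all members, and no direction can be read from it. The RNA methyltransferase Nop2 averaged 53.9 against 61.2 FPKM, the helicase Ddx18 68.5 against 69.4 FPKM and the assembly factor Brix1 78.8 against 75.6 FPKM (knockdown against control), all with overlapping groups.

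The size of the list's shift depended on the library. Set against the control means, the median member stood at 0.07 in Yy1 knockdown replicate 1 and at 0.21 in replicate 2, while the median of all genes tested was 0.04 and about 0 (-0.00091). In replicate 2, 28 of the 37 members were above both controls and 4 below, and in replicate 1 these numbers were 17 and 10. Over all genes tested 35.6% were above both controls in replicate 2 and 39.1% in replicate 1. Replicate 2 exceeded replicate 1 of the Yy1 knockdown in 30 of the 37 members, against 44.6% of all genes tested. Between the controls, replicate 2 was higher in 22 of the 37, against 56.1%. Without Yy1 knockdown replicate 2 the median log2 fold change of the members was 0.0668, with 25 of 37 higher. Without control replicate 1 it was 0.0884, with 28 of 37 higher. Without control replicate 2 and without Yy1 knockdown replicate 1 it was 0.156 and 0.211. The median was above that of all genes tested in each of these fits, in which the median of all genes ranged from -0.00537 to 0.0453.

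**Figure D3:**
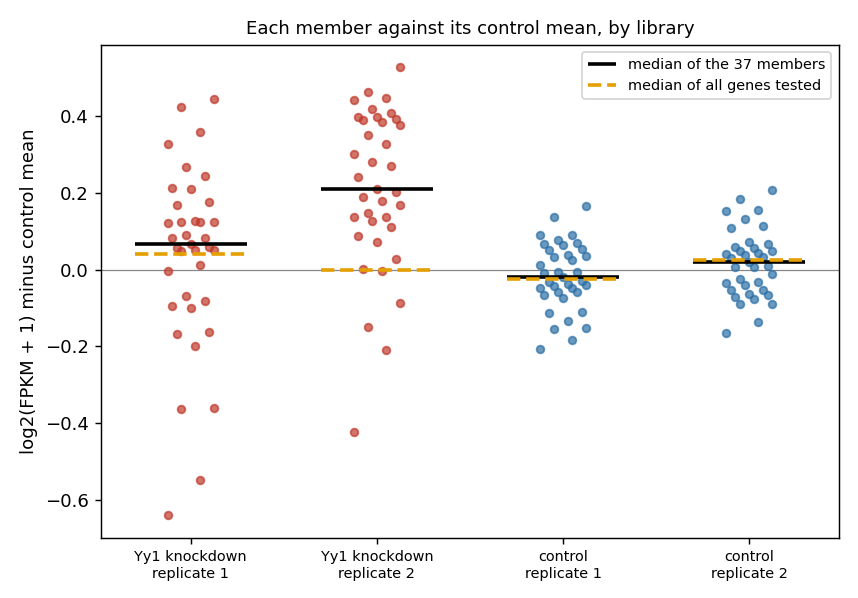
Each of the 37 members as a point, set against its own control mean on the log2(FPKM + 1) scale, in the 2 Yy1 knockdown and the 2 control libraries, with the median of the members (black) and of all genes tested (dashed orange). The members' median is 0.21 in Yy1 knockdown replicate 2 and 0.07 in replicate 1.

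Other genes of ribosome production were higher in a larger share than all genes tested, but were separated between groups about as often. Of 130 further genes, 5 of them of the MYC family, 127 were tested, and 90 of these (70.9%) were higher, where 53.2% of all genes tested were, with a median log2 fold change of 0.09 and 0 called by limma. The groups did not overlap in 54 of the 127 (42.5%), against 40.7% of all genes tested. Of these 41 were separated upwards and 13 downwards, where 21.8% and 18.9% of all genes tested were. By list, the share separated in either direction ran from 25.0% for the MYC family to 53.8% for subunits and factors of RNA polymerase I. The unadjusted p fell below 0.05 for 11 of the 127, a share close to the 8.9% of all genes tested. Large subunit assembly factors outside the 37 were higher in 37 of 43 (median 0.14), but their groups were separated in 14 of 43 (32.6%), a smaller share than the 40.7% of all genes tested, with 13 of the 14 upwards. Among these the helicase Ddx54 averaged 34.8 ± 3.43 FPKM in Yy1 knockdown and 22.3 ± 2.80 FPKM in control embryos (SD, n = 2 each), Tma16 34.7 against 25.5 FPKM and Nifk, which binds the proliferation marker Ki-67, 73.4 against 58.0 FPKM (knockdown against control). Other small subunit processome factors were higher in 29 of 44 (median 0.10). Their groups were separated in 23 of 44 (52.3%), 17 upwards and 6 downwards, a larger share than the 40.7% of all genes tested. Dcaf13 stood at 105 against 78.2 FPKM and Utp11l at 17.9 against 12.5 FPKM (knockdown against control). In the other direction Tsr2, a chaperone of a small subunit protein, stood at 32.3 against 43.3 FPKM. All 11 small subunit members were higher, and of these 44 factors 29 were higher and 15 lower. Whether the lists differ was not tested.

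Subunits and factors of RNA polymerase I were divided, 7 of 13 higher and 6 lower, with a median log2 fold change of 0.03. Taf1a, a subunit of the selectivity factor that recognises the ribosomal DNA promoter, had 48.9 and 47.2 FPKM in the Yy1 knockdown libraries, against 31.1 and 32.4 FPKM in the controls. It was 1.51-fold higher, with a log2 fold change of 0.58 (standard error 0.13, limma adjusted p = 0.462). Polr1c, a subunit shared by polymerases I and III, had 18.7 and 20.3 FPKM in the Yy1 knockdown libraries, against 32.9 and 27.3 FPKM in the controls, 1.54-fold lower (log2 fold change -0.60, limma adjusted p = 0.502). Polr1b, the second largest subunit, averaged 20.6 against 26.8 FPKM. The assembly factors of snoRNPs were higher in 8 of 10, with Pih1d1, a subunit of a chaperone complex for these particles, at 6.76 ± 0.709 FPKM in Yy1 knockdown and 3.91 ± 0.329 FPKM in control embryos (SD, n = 2 each), Ruvbl1 at 51.0 against 44.0 FPKM and Rpap3 at 89.8 against 79.7 FPKM. The RNA exosome, which trims precursor ends, was divided, 6 of 13 higher. Its nuclease subunit Exosc10 had 57.1 and 54.8 FPKM in the Yy1 knockdown libraries, against 39.3 and 38.6 FPKM in the controls, while the cap subunit Exosc2 had 6.54 and 7.04 FPKM in the Yy1 knockdown libraries, against 9.91 and 11.9 FPKM in the controls. Exosc4 averaged 3.78 against 5.17 FPKM. None of these genes passed with limma.

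**Figure D4:**
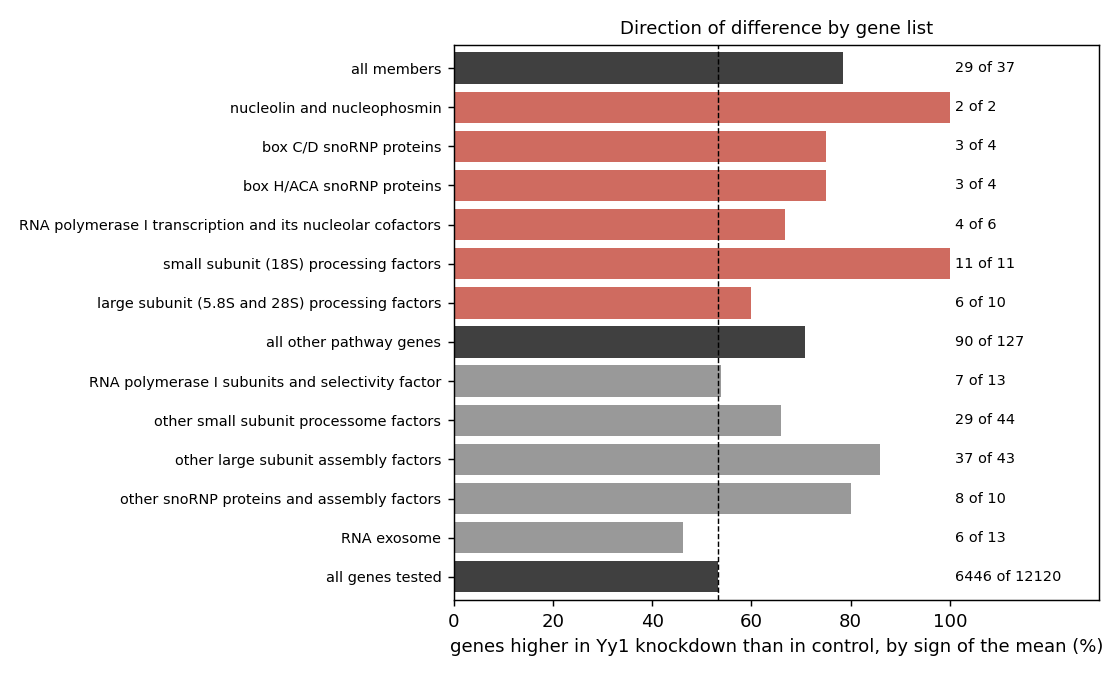
Share of genes whose mean was higher in Yy1 knockdown than in control, for the 37 members and all genes tested (dark bars, dashed line at 53.2%), the 6 role groups (red) and the further lists of the pathway (grey), with counts at the right. Small subunit members reach 11 of 11, and the exosome lies at 6 of 13.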

How the data were processed

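RNA of 8-cell embryos was measured in 2 Yy1 knockdown and 2 control libraries, grouped by sample title, prepared by SMART-Seq stranded chemistry, per the labels' protocols. The authors deposited FPKM per gene in a single table. The submitters' processing notes name HISAT2 2.2.1, Bowtie2 2.4.3, SAMtools 1.4.1, bedtools, R 4.0.3, Trim Galore 0.6.7, featureCounts and mm10, giving no roles. For the annotation release, the strand setting and multiply mapped reads, settings were not given in the sources used here. Hence members with near-identical pseudogene copies and the 10 members that overlap another protein-coding gene are uncertain. How far depends on the overlap, which for some, such as Nop56 with Idh3b, is a few bases at the gene ends. Gapdh was listed at 0.148 to 0.33 FPKM. Library totals and whole fragments were recovered from the steps between values, for 12120 of 12120 genes within a tolerance of 0.002 fragments. On simulated counts 95.9% of genes came out exactly, while others may be too low by a factor shared by all libraries. PCR copies are not independent molecules, so fragment numbers give counting error alone, and that error may be too low.

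Tests covered genes averaging 1 FPKM or more, on log2(FPKM + 1) with limma 3.58.1 in R 4.3.3, with group alone and a mean-variance trend, two-sided, and Benjamini-Hochberg adjustment over all 12120 genes at a threshold of 0.05. This scale understates changes of low genes. The fit was tested on 10 simulated tables with 200 changed genes each. It called 100% of log2 changes of 3 and 96.5% of changes of 1, with 8.1 false calls per table. In the embryos limma called 0 genes, with Yy1 at -3.26 among those not called, so these rates do not carry over. An exact permutation of 2 against 2 cannot go below 0.333. Members and lists were chosen with earlier results of these data known. Values in every library are given for the 5 highest and 3 lowest members, those with an unadjusted p under 0.05, and in each role group the 2 with the smallest p and the widest replicate gap; Ubtf was added because its groups did not overlap; up to 3 genes per further list are named by smallest p. Promoter windows and coordinates are from RefSeq, GRCm38.p6, the assembly behind mm10. Other pseudocounts, filters, scalings, moderation, a replicate block, voom and leaving out each library were tried.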

Additional observations from a re-analysis of the deposited data

How the results depend on the processing

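Under the 13 alternatives the number of members called by limma or voom stayed at 0, and 25 to 32 of 37 members were higher. In the alternatives that kept all 4 libraries, members with an unadjusted p under 0.05 numbered 2 to 7, against 5. Genes called over the whole table numbered 4 with a filter of 5 FPKM, 1 with robust eBayes, 13 with voom and 15 among protein-coding genes alone, against 0; Yy1 passed in these, at -3.26, -3.26, -3.45 and -3.26 on the log2 scale. Leaving out a library gave a median of the members from 0.0668 to 0.211 and 23 to 32 members without overlap, against 19. A lone library separates more easily by construction, so these counts are not comparable with 19. Without Yy1 knockdown replicate 2, 17 members lay above and 10 below both controls, against 4743 and 3656 of all 12120 genes tested. Without Yy1 knockdown replicate 1 these numbers were 28 and 4, against 4316 and 4392. For the fits without a control library, the share over all genes is not given here. Of 19 members followed, 5 changed sign somewhere: Nop16 with median-ratio scaling (-0.0037) and without a library (-0.361 to 0.392), Nhp2 with quantile normalization (-0.0268) and without a library (-0.0686 to 0.203), Nolc1 (-0.0992 to 0.0876), Nop14 (-0.0958 to 0.463) and Nop56 (-0.198 to 0.00209) without a library; the cause was not tested. The remaining members were not followed, but signs of some of these also depend on a library. Against the control mean, Yy1 knockdown replicates 1 and 2 stood at -0.163 and 0.111 for Ddx18 and -0.0822 and 0.188 for Brix1. For Bop1 they stood at 0.0514 and -0.149, and for Rrp9 at -0.00389 and 0.0273. Control replicate 1 of Mybbp1a, at 0.0908, exceeded both knockdown libraries. Median-ratio scaling moved the median of the members to 0.162, with 27 higher, and quantile normalization to 0.144, with 28 higher, against 0.182 and 29. The labels do not say that replicate numbers mark shared batches, and deviations of same-numbered libraries correlated at 0.0994 across genes; a replicate block left 0 members called and a median of 0.182. Counting error, with each fragment taken as an independent molecule, was below the spread between libraries in 33 of 37 members in each group.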

Other observations

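Several members carry snoRNA genes inside them. RefSeq places 19 snoRNA genes within the spans of 7 members, among them Snord82 in Ncl, Snord70 in Nop58, Snord110 in Nop56 and Snord53 in Wdr43. Of these 14 had a row in the table, 11 with a mean of at least 1 FPKM and 2 at 0 in all 4 libraries. Snord82 had 32.7 and 28.8 FPKM in the Yy1 knockdown libraries and 24.5 and 47.8 FPKM in the controls. Snord53 had 5.64 and 15.8 FPKM in the Yy1 knockdown libraries and 3.35 and 2.86 FPKM in the controls. Groups overlapped for the snoRNAs Snord92 and Gm22858 of the same host. Snord92 had 15.9 and 8.43 against 10.3 and 8.62 FPKM, and Gm22858 17.0 and 4.94 against 11.1 and 11.3 FPKM (knockdown against control). Genes this short collect few fragments at these levels, and Wdr43 had 38201 to 54413, so replicate spreads of snoRNA and host are not comparable. Whether the snoRNA values come from the snoRNA or from precursor RNA of the host was not tested.

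Mycl, a relative of Myc below the filter, had 1.88 and 1.22 FPKM in the Yy1 knockdown libraries and 0.755 and 0.134 FPKM in the controls. It was named after its values were seen.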
